A study of Mus musculus with 18 samples.

Results

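The 10 genes described here make the acylceramides of the skin barrier or attach them to the corneocyte surface. They are Elovl1, Elovl4, Slc27a4, Cyp4f39, Pnpla1, Abhd5, Abca12, Alox12b, Aloxe3 and Sdr9c7. They were picked by symbol from a fixed list of lipid barrier genes linked to ichthyosis, and all 10 were found among the 41605 genes counted in each library. The rule itself uses no measured value, but the members were chosen with earlier results of these data known. Comparisons with all genes below are therefore not independent of these data. All 10 passed the filter on low counts, as did 16836 genes in all. RNA of skin sections from C57BL/6 mice, 8 to 12 weeks of age, had been sequenced in bulk, in 6 libraries each of skin treated with detergent A, skin treated with detergent B and skin treated with PBS, the phosphate-buffered saline control. The mice carried no labelled transgene or mutation. The series concerns household laundry detergents and the skin barrier, and its design sets each detergent against PBS. The labels give no dose, duration or body site, nor do they tie libraries to animals, and p-values below therefore measure only the spread between these samples.

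The outermost dead cells of the epidermis, the corneocytes, are held in sheets of lipid that keep water in. Acylceramides, or omega-O-acylceramides, are the lipids particular to this layer: their fatty acid is so long that it spans the membrane, and its far end carries an esterified linoleic acid. Keratinocytes of the upper layers lengthen the fatty acid, hydroxylate its end, join it to a sphingoid base and add the linoleate. The product is then loaded into lamellar granules and secreted. Part of it is oxidised by lipoxygenases and bound to the proteins of the cornified envelope, which gives the corneocyte lipid envelope. Loss of function of these genes in people or mice causes ichthyosis or a lethal barrier defect, and the human disease of ABCA12 is harlequin ichthyosis.

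The 10 genes were higher on average in detergent-treated skin than in PBS-treated skin, by 1.33- to 1.79-fold with detergent A and by 1.25- to 1.96-fold with detergent B. With detergent B, 4 of 10 rose by edgeR's quasi-likelihood test at an adjusted p under 0.05, and none fell. These were the acylceramide synthesis genes Pnpla1 and Abhd5, the lipid transporter gene Abca12 and the dehydrogenase gene Sdr9c7. Over all genes tested, 3.05% passed in this comparison, 1.97% as higher and 1.08% as lower. With detergent A none of the 10 passed, against 0.19% of all genes (0.0535% as higher and 0.137% as lower), although all 10 had an unadjusted p under 0.05, against 18.8% of all genes. With both detergents pooled against PBS, 8 of 10 rose, all but Elovl1 and Aloxe3, against 6.91% of all genes, 3.8% as higher and 3.11% as lower. The median log2 fold change of the 10 genes was 0.61 for detergent A, 0.63 for detergent B and 0.61 for both together, against -0.01 for all genes in each. The 3 comparisons share their PBS libraries, and the third is the mean of the other two, so they are not independent of each other. In bulk skin, a larger share of the cells that express a gene and more RNA of it per cell cannot be told apart.

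**Figure D1:**
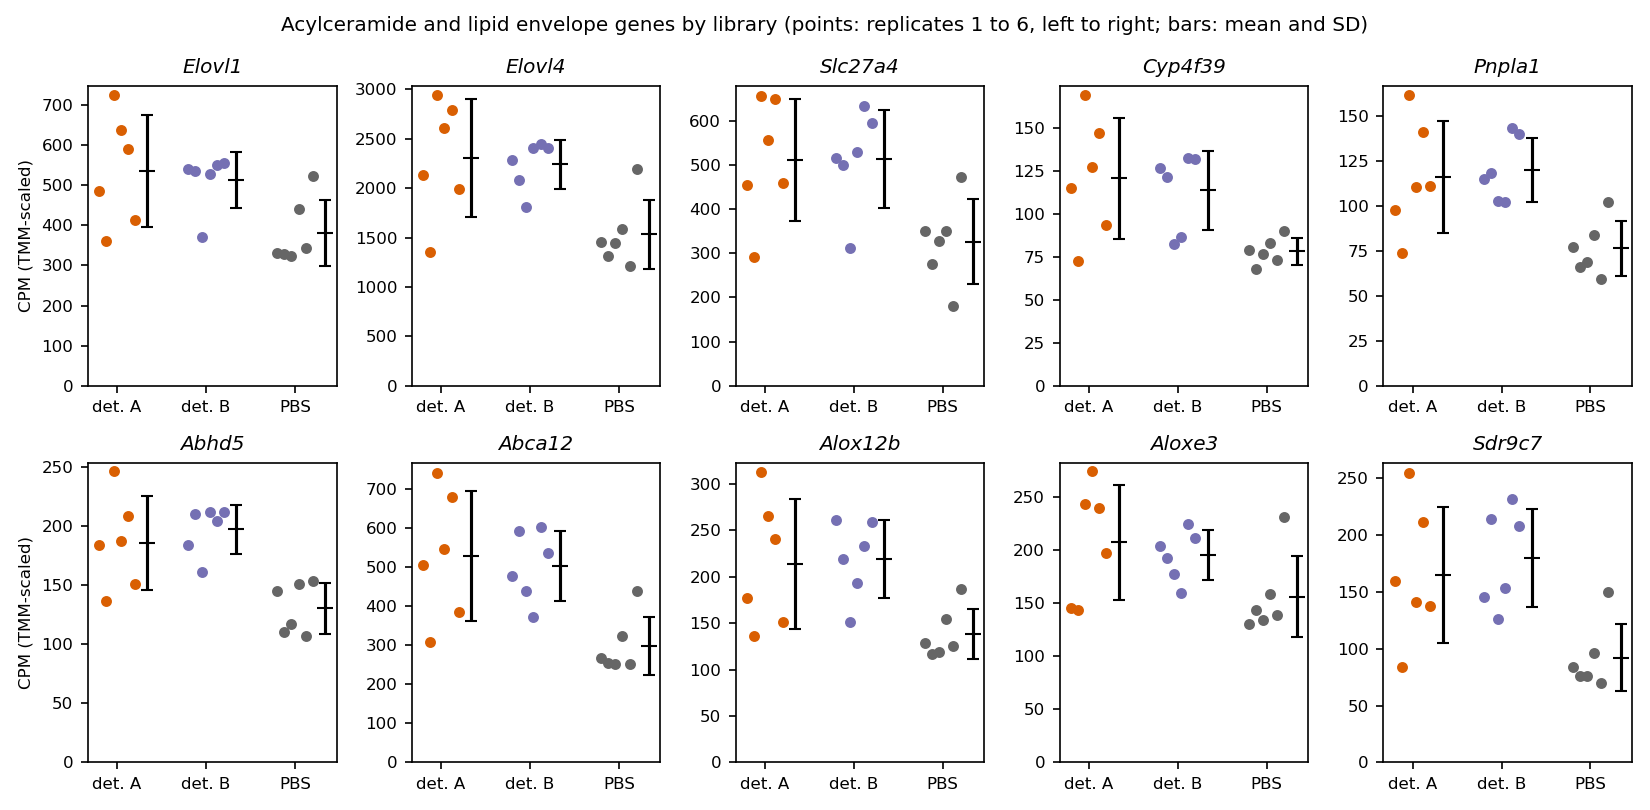
Level of each gene in every library, in TMM-scaled CPM (vertical axis from 0), with points for replicates 1 to 6 from left to right and bars for the mean and SD of each group. Detergent A and B libraries lie mostly above PBS libraries, detergent A replicate 2 is the lowest of its group for all 10 genes, and PBS replicate 6 is the highest of its group for all 10.

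The count of genes that passed depended on single libraries, and so did the share of all genes that passed, given here after each count. Without PBS replicate 6, the count was 10 of 10 for detergent A (5.24% of all genes), 9 for detergent B (11.1%) and 10 for both together (15.3%). Without detergent A replicate 2, it was 9 for detergent A (5.01%), 7 for detergent B (4.26%) and 9 for both together (11.9%). For detergent B it was 0 when PBS replicate 2, 3 or 5, or detergent B replicate 2, 4, 5 or 6, was left out, fits in which 0.165% to 1.04% of all genes passed. For both together it was 0 without PBS replicate 2 (0.549%), 3 (1.25%) or 5 (1.38%). Other single libraries moved it too: with detergent A it was 4 without detergent A replicate 6 (4.55%) and 1 without detergent B replicate 4 (1.11%), and 0 in the other 14 fits (0.0% to 0.213%). With detergent B it was 7 without detergent B replicate 3 (6.19%) and 1 without PBS replicate 1 (0.887%) or 4 (1.55%). For both together it was 3 without PBS replicate 1 (2.22%), 5 without detergent B replicate 6 (4.42%), and 4 without detergent A replicate 5 (3.31%) or detergent B replicate 2 (3.66%) or 5 (4.11%). The direction did not turn for any of the 10 genes in any of these fits: all log2 fold changes over PBS stayed above 0. Totals ranged from 17312623 to 29599018 counts per library, and the lowest count of any of the 10 genes in any library was 1289, for Pnpla1.

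The promoter windows of the 4 genes that passed the threshold with detergent B are shown. Only the threshold sets these 4 apart, since all 10 genes were higher on average with detergent B. Each window is the 250 bases before the annotated start, 5′ to 3′ on the gene's strand, from RefSeq on GRCm38.p6. Capitals mark matches to a CCAAT box (CCAAT), a GC box (GGGCGG) or a TATA box (TATAAA) on either strand.
Pnpla1, chr17:28858161-28858410, plus strand: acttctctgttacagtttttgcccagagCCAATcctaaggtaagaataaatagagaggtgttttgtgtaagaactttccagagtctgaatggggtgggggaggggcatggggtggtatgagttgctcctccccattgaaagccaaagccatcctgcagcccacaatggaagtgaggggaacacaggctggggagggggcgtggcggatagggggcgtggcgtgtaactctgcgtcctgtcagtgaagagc
Abhd5, chr9:122351366-122351615, plus strand: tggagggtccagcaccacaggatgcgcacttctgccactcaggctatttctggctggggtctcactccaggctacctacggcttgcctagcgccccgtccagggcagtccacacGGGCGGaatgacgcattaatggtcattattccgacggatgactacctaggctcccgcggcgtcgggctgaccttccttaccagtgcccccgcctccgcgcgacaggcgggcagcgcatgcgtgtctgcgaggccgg
Abca12, chr1:71414911-71415160, minus strand: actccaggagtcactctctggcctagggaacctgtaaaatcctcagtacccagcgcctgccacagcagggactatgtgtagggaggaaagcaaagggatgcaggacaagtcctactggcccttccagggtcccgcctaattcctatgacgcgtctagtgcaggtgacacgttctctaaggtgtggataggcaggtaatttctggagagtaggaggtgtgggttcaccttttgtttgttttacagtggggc
Sdr9c7, chr10:127898285-127898534, plus strand: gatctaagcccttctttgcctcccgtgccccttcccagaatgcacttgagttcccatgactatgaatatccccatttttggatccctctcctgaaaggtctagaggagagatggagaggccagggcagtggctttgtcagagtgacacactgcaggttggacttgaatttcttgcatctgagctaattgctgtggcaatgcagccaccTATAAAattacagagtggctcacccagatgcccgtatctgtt

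Each of the 4 windows had at most one match: a CCAAT box 222 bases before the start of Pnpla1, a GC box 136 bases before that of Abhd5, a TATA box 42 bases before that of Sdr9c7, and none in Abca12. Over the 10 windows of 9 members (Elovl1 has a window for each of its 2 starts), 6 held the GC box, against 32.7% of 32817 windows of all genes. The CCAAT box was in 2 of 10, against 33.8%, and the TATA box was in 1 of 10, against 12.4%. No window held TGANTCA (AP-1), which 6.75% of all windows hold, or CACGTG (an E-box), which 6.02% hold. None held AACNGGTT, the motif of grainyhead-like factors, which 1.78% hold. Both strands were searched, and the CCAAT box of Elovl1 shared bases with a GC box. The 4 windows thus had no searched motif in common.

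Elovl1 and Elovl4 carry out the lengthening of the fatty acid, with Elovl4 making the longest chains. Elovl1 lies at 4:118428093-118432953 (GRCm38). Levels are in CPM, the counts per 1000000 counted reads of a library after TMM scaling, a correction for library composition. The lowest, median and highest level of Elovl1 was 360.0, 537.6 and 725.3 CPM with detergent A, 371.4, 537.0 and 555.8 CPM with detergent B, and 324.5, 336.3 and 522.2 CPM with PBS. The groups overlapped: 3 of 6 detergent A libraries and 5 of 6 detergent B libraries were above the highest PBS library. Elovl1 was 1.4-fold PBS with detergent A (log2 fold change 0.49 ± 0.17 SE, adjusted p = 0.1376, edgeR) and 1.35-fold with detergent B (0.43 ± 0.17, adjusted p = 0.1382), and it did not pass for both together (adjusted p = 0.06602). Its last bases overlap those of Cdc20 on the other strand, a cell cycle gene with 1386.8 counts per library on average against 10269.9 for Elovl1. The strand setting of the counting is not given, so reads of the overlap cannot be assigned.

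Elovl4, at 9:83778692-83806277, had 1353.5, 2372.6 and 2946.1 CPM as its lowest, median and highest level with detergent A, 1812.0, 2345.9 and 2450.7 CPM with detergent B, and 1209.0, 1452.8 and 2192.2 CPM with PBS. Detergent B and PBS overlapped only through PBS replicate 6, and the other 5 PBS libraries lay below all 6 detergent B libraries. Detergent A replicate 2, at 1353.5 CPM, lay below PBS replicates 1, 3, 4 and 6. Elovl4 rose 1.48-fold with both detergents together (adjusted p = 0.03464, edgeR). Taken singly, it was 1.5-fold with detergent A (log2 0.59 ± 0.17, adjusted p = 0.09572) and 1.46-fold with detergent B (0.55 ± 0.17, adjusted p = 0.07783).

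Slc27a4, at 2:29802634-29817522, encodes fatty acid transport protein 4, which activates very long chain fatty acids as acyl-CoA. Its lowest, median and highest level was 292.0, 508.0 and 654.6 CPM with detergent A, 312.7, 522.8 and 632.0 CPM with detergent B, and 180.8, 338.4 and 471.5 CPM with PBS. Detergent B replicate 3 stood apart at the low end, and the other 5 detergent B libraries were above every PBS library. Slc27a4 rose 1.57-fold with both detergents together (adjusted p = 0.04821, edgeR), close to the threshold. The single comparisons gave 1.57-fold for detergent A (log2 0.65 ± 0.22, adjusted p = 0.1319) and 1.58-fold for detergent B (0.66 ± 0.22, adjusted p = 0.09005).

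Cyp4f39, at 17:32452723-32493320, encodes the cytochrome P450 that hydroxylates the end of the ultra-long fatty acid. It had 72.6, 121.1 and 169.3 CPM as its lowest, median and highest level with detergent A, 82.5, 124.2 and 132.3 CPM with detergent B, and 67.7, 77.9 and 90.0 CPM with PBS. PBS libraries were close together, with an SD of 7.77 CPM against 35.2 with detergent A and 22.9 with detergent B. All but 1 detergent A library, and 4 of 6 detergent B libraries, were above the highest PBS library. Cyp4f39 rose 1.5-fold with both detergents together (adjusted p = 0.03188, edgeR), and was 1.54-fold with detergent A (log2 0.62 ± 0.17, adjusted p = 0.0822) and 1.45-fold with detergent B (0.54 ± 0.17, adjusted p = 0.07981).

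Pnpla1 and Abhd5 act together in the last step of acylceramide synthesis: PNPLA1 transfers linoleate from triglyceride to the omega-hydroxyceramide, and ABHD5 (also called CGI-58) presents the triglyceride and promotes the transfer. Pnpla1 lies at 17:28858411-28890309 and had 74.1, 110.8 and 161.6 CPM as its lowest, median and highest level with detergent A, 102.0, 116.5 and 143.6 CPM with detergent B, and 59.6, 73.3 and 102.1 CPM with PBS. Detergent B and PBS met at one pair of libraries, 102.0 against 102.1 CPM, and were otherwise separate. Pnpla1 rose 1.57-fold with detergent B (log2 0.66 ± 0.16, adjusted p = 0.04144, edgeR) and 1.55-fold with both together (adjusted p = 0.02003). With detergent A it was 1.52-fold (0.6 ± 0.16, adjusted p = 0.08017).

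Abhd5, at 9:122351608-122381524, had 136.8, 185.7 and 247.1 CPM as its lowest, median and highest level with detergent A, 161.4, 207.7 and 212.3 CPM with detergent B, and 106.8, 131.2 and 154.1 CPM with PBS. It was the only one of the 10 whose 6 detergent B libraries all lay above all 6 PBS libraries, which 1.72% of all genes did. None of the 10 was separate in this way for detergent A, against 0.404% of all genes, or for both detergents, against 0.143%. Abhd5 rose 1.51-fold with detergent B (log2 0.6 ± 0.13, adjusted p = 0.02928, edgeR) and 1.47-fold with both together (adjusted p = 0.0148), the smallest adjusted p of the 10 genes in both comparisons. With detergent A it was 1.42-fold (0.51 ± 0.13, adjusted p = 0.0722). Antisense transcripts overlap both genes, with mean counts of 81.9 for A730085K08Rik against 3711.3 for Abhd5, and 0.9 for Pnpla1os against 2261.4 for Pnpla1. Without PBS replicate 6, detergent B and PBS libraries were separate for 6 of the 10 genes (Elovl4, Pnpla1, Abhd5, Abca12, Aloxe3 and Sdr9c7), against 5.39% of all genes, and still for none with detergent A (2.13%) or both detergents (1.09%).

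Abca12, at 1:71242276-71414910, encodes the transporter that loads glucosylated acylceramide into lamellar granules. Its lowest, median and highest level was 309.2, 526.4 and 742.1 CPM with detergent A, 371.9, 507.7 and 601.8 CPM with detergent B, and 251.6, 261.9 and 440.1 CPM with PBS. PBS replicate 6 was the highest PBS library, and 4 of 6 libraries of each detergent were above it. Abca12 rose 1.69-fold with detergent B (log2 0.76 ± 0.2, adjusted p = 0.04684, edgeR) and 1.73-fold with both together (adjusted p = 0.01745). With detergent A it was 1.77-fold (0.82 ± 0.2), with the lowest adjusted p of the 10 genes in that comparison, 0.06089.

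Alox12b and Aloxe3 encode the lipoxygenases 12R-LOX and eLOX3, which oxidise the linoleate of secreted acylceramides one after the other. The genes are neighbours on chromosome 11, Aloxe3 at 69125896-69149115 and Alox12b at 69156989-69169792. Alox12b had 136.3, 209.1 and 313.1 CPM as its lowest, median and highest level with detergent A, 150.8, 226.2 and 261.1 CPM with detergent B, and 116.4, 127.0 and 186.8 CPM with PBS. The groups overlapped, with 3 of 6 detergent A and 5 of 6 detergent B libraries above the highest PBS library. Alox12b rose 1.57-fold with both detergents together (adjusted p = 0.03301, edgeR), and was 1.55-fold with detergent A (log2 0.63 ± 0.19, adjusted p = 0.1078) and 1.59-fold with detergent B (0.67 ± 0.19, adjusted p = 0.0625).

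Aloxe3 had the smallest differences of the 10 genes. Its lowest, median and highest level was 144.0, 218.3 and 274.8 CPM with detergent A, 159.7, 198.4 and 225.0 CPM with detergent B, and 130.8, 141.4 and 231.0 CPM with PBS. PBS replicate 6 was above every detergent B library, and all 6 detergent B libraries were above the other 5 PBS libraries. Aloxe3 was 1.33-fold with detergent A (log2 0.41 ± 0.17, adjusted p = 0.2008, edgeR), 1.25-fold with detergent B (0.32 ± 0.17, adjusted p = 0.2503) and 1.29-fold with both together (adjusted p = 0.1278). The 95% interval of its log2 fold change with detergent B ran over -0.03 to 0.68. The difference between the responses of Alox12b and Aloxe3 was not tested.

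Sdr9c7, at 10:127898518-127911761, encodes the dehydrogenase that turns the oxidised linoleate into the reactive form bound to envelope proteins. It had 84.0, 150.7 and 254.2 CPM as its lowest, median and highest level with detergent A, 126.3, 180.6 and 231.6 CPM with detergent B, and 70.3, 80.0 and 149.5 CPM with PBS. Libraries were spread widely in each group, and 3 of 6 detergent A and 4 of 6 detergent B libraries were above the highest PBS library. Sdr9c7 rose 1.96-fold with detergent B (log2 0.97 ± 0.24, adjusted p = 0.03883, edgeR) and 1.87-fold with both together (adjusted p = 0.02116), the largest folds of the 10 genes. With detergent A it was 1.79-fold (0.84 ± 0.24, adjusted p = 0.08796).

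**Figure D2:**
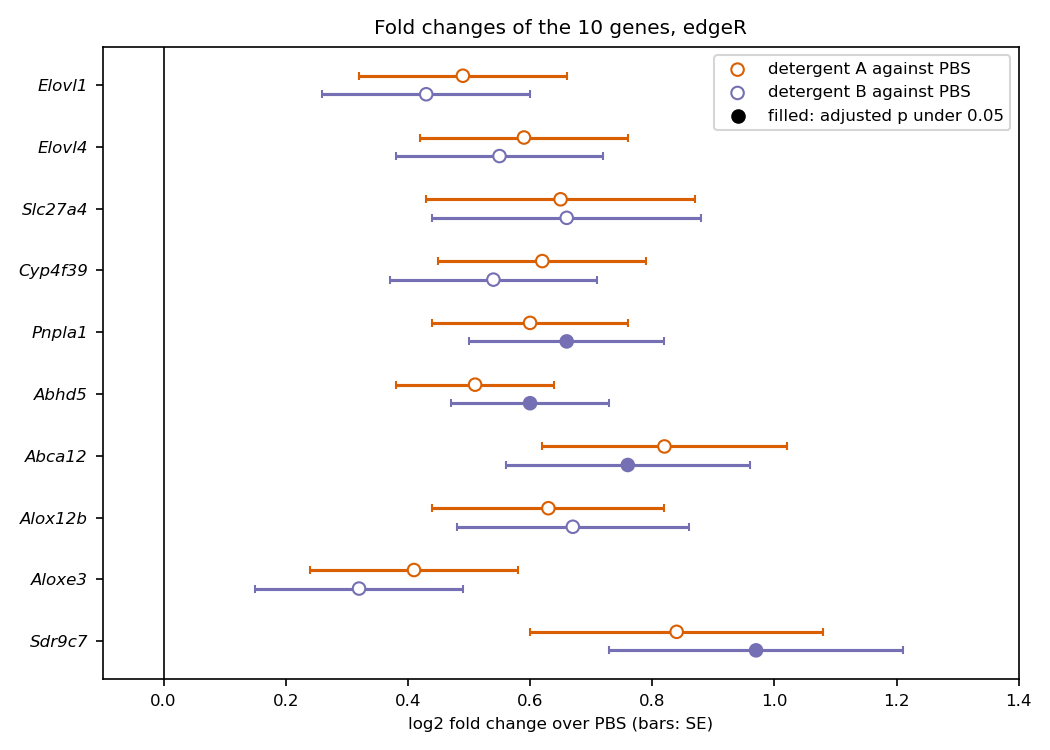
Log2 fold change over PBS of each gene (rows) for detergent A (orange) and detergent B (purple), with bars for the SE and filled points for an adjusted p under 0.05 in edgeR's test. All points lie right of 0, between 0.32 and 0.97, and the 4 filled points are Pnpla1, Abhd5, Abca12 and Sdr9c7 with detergent B.

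Detergent B and detergent A did not differ detectably in these genes. In the direct comparison none of the 10 passed, 0 of 16836 genes passed (0.0%), and DESeq2 called none either. At an unadjusted p under 0.05 there were 0 of the 10 and 3.27% of all genes. Log2 fold changes of detergent B over detergent A ran from -0.09 for Cyp4f39 and Aloxe3 to 0.13 for Sdr9c7, with 5 of 10 above 0 and a median of -0.02. Their 95% intervals together spanned -0.49 to 0.63, which is the range of differences these libraries leave possible. That 4 genes passed with detergent B and none with detergent A is not a tested difference between the detergents.

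The 10 genes differ widely in level. In RPKM, which divides the scaled CPM by the length of the union of annotated exons in kilobases, Elovl4 was the most abundant at 761.7 ± 196.7 with detergent A, 740.4 ± 82.6 with detergent B and 507.3 ± 114.9 with PBS (SD, n = 6). Elovl1 came next, at 196.3, 188.2 and 139.8 ± 30.1 RPKM in the same groups, then Slc27a4 at 115.8, 116.5 and 73.8 ± 21.7 RPKM and Alox12b at 88.1, 90.3 and 56.9 ± 11.2 RPKM. Those 4 stood in this order in all 3 groups, although Slc27a4 and Alox12b differed by less than the SD of Slc27a4 in PBS libraries. With PBS the other 6 lay between 30.3 ± 9.73 RPKM for Sdr9c7 and 15.8 ± 3.16 RPKM for Pnpla1. Cyp4f39, Aloxe3, Abhd5 and Abca12 fell between them at 27.4 ± 2.72, 24.4 ± 5.93, 22.0 ± 3.62 and 20.2 ± 5.03 RPKM, each within the SDs of its neighbours. Pnpla1 had the lowest mean RPKM in each group. The exon union holds all annotated isoforms, so a gene expressed as a short isoform is understated.

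Single libraries were high or low across most of the 10 genes at once. Detergent A replicate 2 was the lowest of its group for 10 of 10 genes and above the PBS mean for only 2. Detergent A replicates 3 and 5 were above the highest PBS library for all 10, and replicate 3 was the highest of its group for 9. Detergent B replicate 3 was the lowest of its group for 7 genes and detergent B replicate 5 the highest for 7. PBS replicate 6 was the highest PBS library for all 10, and PBS replicate 5 the lowest for 5. After subtracting group means, each gene's log2 CPM followed the mean of the other 9 over the 18 libraries with a Pearson r between 0.785 for Aloxe3 and 0.939 for Elovl4 (Spearman rho 0.806 and 0.905). Without the 2 libraries farthest from the median, r lay between 0.729 and 0.904. Among the 45 pairs of members, r ran from 0.549 (Abhd5 with Aloxe3) through a median of 0.839 to 0.962 (Elovl1 with Alox12b). These are descriptions: the points share libraries, and with them the makeup of each piece of skin.

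The makeup of the skin varied with the same libraries. Keratins of the epidermis (Krt5, Krt14, Krt1 and Krt10, summed) had a lowest, median and highest level of 19734.8, 30203.5 and 50279.7 CPM with detergent A, 25957.0, 41239.3 and 45604.0 CPM with detergent B, and 14625.5, 20638.4 and 29125.7 CPM with PBS. The highest of these in PBS was replicate 6, and the lowest with each detergent were replicate 2 for A and replicate 3 for B. The suprabasal keratin gene Krt1 rose 2.78-fold with detergent B (adjusted p = 0.01591, edgeR), and Krt10 (1.88-fold, adjusted p = 0.06519) and the basal keratin gene Krt5 (1.23-fold, adjusted p = 0.3104) did not pass. Of 10 markers of suprabasal and granular keratinocytes, 5 rose with detergent B (Krt1, Flg, Ivl, Dsc1 and Cdsn) and none with detergent A, while 0 of 6 basal markers passed in either. Over all genes, 3.05% passed with detergent B and 0.19% with detergent A. Epidermal keratinocyte markers were abundant in all 3 groups, as skin should show, apart from Krt2, which averaged 6.14, 6.15 and 4.18 CPM with detergent A, detergent B and PBS.

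Genes of the hair follicle were lower on average in detergent-treated skin. The summed level of 10 hair shaft keratins (of 11 listed) was 3.69, 61.2 and 291.2 CPM (lowest, median and highest) with detergent A, 3.88, 19.1 and 193.1 CPM with detergent B, and 20.4, 279.8 and 480.8 CPM with PBS. The extremes were again detergent A replicate 2 and detergent B replicate 3 at the high end, and PBS replicate 6 at the low end. Of the 10 keratins, 0 passed with either detergent alone and 2 (Krt34 and Krt81) fell with both together, although all 10 log2 fold changes were below 0. Over all genes, 0.19% passed with detergent A, 3.05% with detergent B and 6.91% with both together. Inner root sheath markers showed a similar pattern, with 13.5, 827.9 and 5735.2 CPM summed with detergent A, 24.3, 190.2 and 4665.4 CPM with detergent B, and 202.2, 5996.6 and 8568.9 CPM with PBS, and 0 of 8 passed. Sebocyte markers summed to medians of 6440.2, 5787.6 and 4201.7 CPM with detergent A, detergent B and PBS, and 3 of 10 rose with both together (Scd1, Elovl3 and Soat1). Melanocyte markers, which mark pigment cells that also lie in the follicle, summed to medians of 283.3, 196.4 and 471.4 CPM with detergent A, detergent B and PBS. PBS replicate 6 was again the lowest PBS library, and 0 of 6 passed, although all 6 log2 fold changes were below 0 with each detergent. Of the markers of adipocytes, skeletal muscle, fibroblasts, leukocytes and endothelium, none passed with either detergent, and with both together the collagen gene Col1a1 fell. No marker of any of these lists was under 0.1 CPM in every library.

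**Figure D3:**
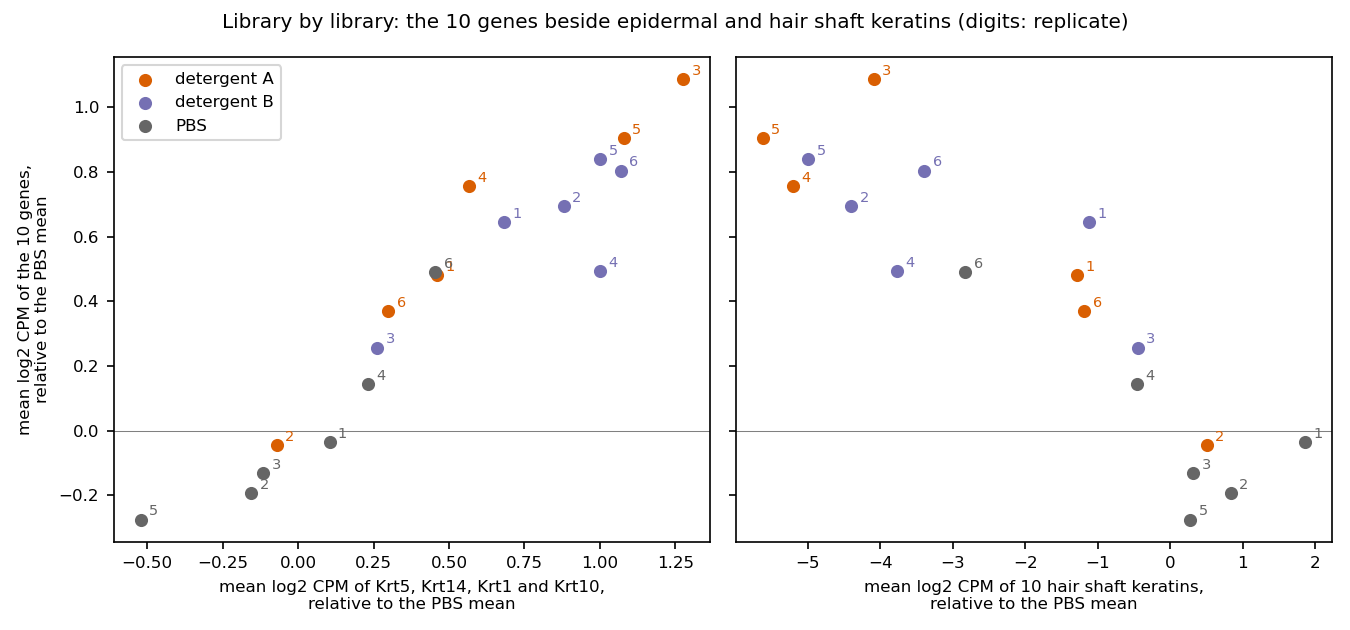
Mean log2 CPM of the 10 genes (vertical axis) in each library against that of 4 epidermal keratins (left) and 10 hair shaft keratins (right), each relative to its PBS mean, with the replicate number beside each point. Levels of the 10 genes were mostly higher where epidermal keratin was higher and hair keratin lower, with exceptions such as detergent B replicate 4 beside replicate 1: the detergent A libraries ran over -0.04 to 1.09, detergent B over 0.26 to 0.84 and PBS over -0.28 to 0.49 on the vertical axis.

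With the hair shaft score as a covariate, none of the 10 genes passed in any comparison, and their median log2 fold change was 0.24 for detergent A, 0.248 for detergent B and 0.248 for both together. Of the 10, 9 stayed above 0 with detergent B, with Aloxe3 at -0.007. With the epidermal keratin score as a covariate, none passed either, and the medians were 0.139, 0.019 and 0.088, with 5 of 10 above 0 for detergent B. With each of these covariates, 0 of 16836 genes passed at all. A covariate that itself differs between the groups takes up part of any difference between them, so the share due to the detergents and the share due to tissue makeup cannot be told apart here.

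**Figure D4:**
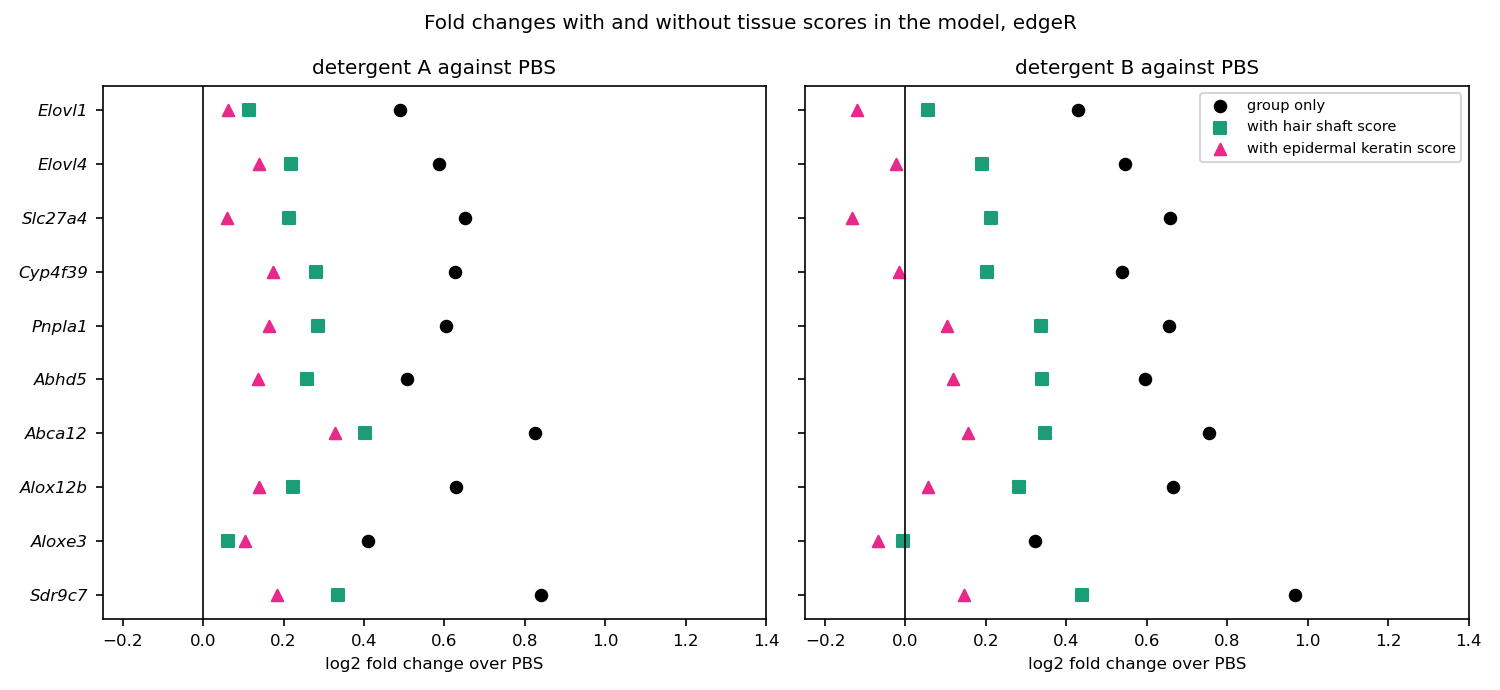
Log2 fold change over PBS of each gene (rows) for detergent A (left) and detergent B (right) from the model with group only (black circles), with the hair shaft score added (green squares) and with the epidermal keratin score added (pink triangles). With group only, all lie above 0, and with the epidermal keratin score 5 of 10 lie below 0 for detergent B.

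The 10 genes were also set against the epidermal keratins of the same library. Per 1000 CPM of the 4 epidermal keratins, Abca12 had a median of 15.5 CPM with detergent A, 13.9 with detergent B and 13.5 with PBS, and Sdr9c7 had 4.88, 4.71 and 4.03. The other 8 genes had lower medians with each detergent than with PBS on this scale. By means, the order turned for Abca12 with detergent B, at 13.4 ± 3.06 against 14.1 ± 1.82 with PBS (SD). It also turned for Slc27a4 with detergent A, at 15.4 ± 1.81 against 15.1 ± 1.65 with PBS, and in no other case. Aloxe3 had medians of 6.27, 5.06 and 7.32 CPM per 1000 CPM of keratin with detergent A, detergent B and PBS, and Elovl1 had 15.5, 13.2 and 17.7. Elovl4 had 69.9, 54.9 and 72.5 in the same groups, and Pnpla1 had 3.44, 3.17 and 3.51. These ratios were not tested, and Krt1, part of the denominator, itself rose with detergent B.

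Among 61 partner genes of acylceramide metabolism in 5 lists, 59 were tested. With detergent B 16 rose and none fell, with detergent A 1 rose and none fell, and with both together 23 rose and 1 fell. Over all genes tested, 3.05% passed with detergent B, 0.19% with detergent A and 6.91% with both together. Direct comparison of detergent B with detergent A called none. With either tissue score as a covariate, none passed against PBS. With one library left out, the count for detergent B lay between 2 (without PBS replicate 2 or 3) and 33 (without PBS replicate 6). The share of all genes that passed in these fits was 0.177%, 0.165% and 11.1%. The count was 9 or fewer without PBS replicate 1, 4 or 5 or detergent B replicate 2, 4, 5 or 6 (0.484% to 1.55% of all genes). For detergent A it was 27 without PBS replicate 6 (5.24%), 25 without detergent A replicate 2 (5.01%) and 16 without detergent A replicate 6 (4.55%). It was 0 in 9 of 18 such fits. For both together it lay between 4 (without PBS replicate 2, 0.549% of all genes) and 39 (without PBS replicate 6, 15.3%).

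Among partner genes that passed with detergent A or detergent B, the largest change was in the sphingoid base and ceramide core list. Degs2, which encodes the enzyme that hydroxylates dihydroceramide to phytoceramide, averaged 73.3 ± 32.6 CPM with detergent A, 93.7 ± 16.6 with detergent B and 25.1 ± 8.89 with PBS (SD, n = 6). It rose 2.91-fold with detergent A (adjusted p = 0.03919, edgeR) and 3.73-fold with detergent B (adjusted p = 0.008446). In the main fit it was the only partner gene to pass with detergent A. No partner gene passed with detergent A with no filter, only the libraries compared, a replicate block or the GC correction. DESeq2 called 20 partner genes (5.13% of all genes) and limma voomWithQualityWeights 42 (23.3%). With detergent B 5 of 11 genes of this list rose, against 1.97% of all genes, with a list median log2 fold change of 0.56. They include Cers3, the ceramide synthase for ultra-long acyl chains (1.77-fold, adjusted p = 0.03104), and Sptlc1, a serine palmitoyltransferase subunit (1.48-fold, adjusted p = 0.02268). Sptssa and Degs1 also rose. Sptssb, a small subunit of the same transferase at a mean of 0.303, 0.173 and 0.94 CPM with detergent A, detergent B and PBS, fell with both together (adjusted p = 0.04388).

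Of 12 genes for glucosylation, packaging and release, 5 rose with detergent B (1.97% of all genes did) and none with detergent A (0.0535%). Ugcg, the glucosylceramide synthase gene, averaged 154.8 ± 34.5 CPM with detergent A, 162.2 ± 10.5 with detergent B and 105.9 ± 8.46 with PBS. It rose 1.53-fold with detergent B (adjusted p = 0.01462, edgeR) and was 1.46-fold with detergent A (adjusted p = 0.0548). The sphingomyelinase genes Smpd1 (1.66-fold, adjusted p = 0.0326) and Smpd3 (1.86-fold, adjusted p = 0.03883) rose with detergent B, as did Rab11a, a vesicle transport gene. In the very long chain elongation cycle, 1 of 11 rose with detergent B, the elongase gene Elovl7 (1.57-fold, adjusted p = 0.04315), and none with detergent A. With both together, Elovl3 (1.8-fold, adjusted p = 0.03343), which is also a sebocyte marker, and the dehydratase gene Hacd3 (1.22-fold, adjusted p = 0.0146) rose as well. None of 13 linoleate and triglyceride supply genes passed in any comparison. Over all genes, 0.19% passed with detergent A, 3.05% with detergent B and 6.91% with both together (3.8% as higher). The absence of calls in a list of 13 is therefore near what genes in general gave. The 2 supply genes closest with detergent B were the acyl-CoA synthetase genes Acsl1 (1.35-fold, adjusted p = 0.08051, edgeR) and Acsl5 (1.25-fold, adjusted p = 0.156).

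Of 12 tested genes for envelope attachment and linked ichthyoses, 5 rose with detergent B (1.97% of all genes did) and none with detergent A (0.0535%). The list's median log2 fold change with detergent B was 0.67. Casp14, a protease of late differentiation, averaged 816.2 ± 284.5 CPM with detergent A, 1076.9 ± 223.6 with detergent B and 448.7 ± 53.8 with PBS, and rose 2.4-fold with detergent B (adjusted p = 0.009783, edgeR). Asprv1, a protease that processes filaggrin, rose 2.11-fold (adjusted p = 0.01382). Lipn, an epidermal lipase gene, rose 2.06-fold (adjusted p = 0.02349). Ephx3, an epoxide hydrolase gene, and Sult2b1, which sulfates cholesterol, rose too. With detergent A, Casp14 was 1.82-fold (adjusted p = 0.05836) and Asprv1 1.8-fold (adjusted p = 0.05768).

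Relatives of the 10 genes by family mostly did not pass. Few of all genes did: 0.19% with detergent A, 3.05% with detergent B and 6.91% with both together. The absence of calls in lists this short, or in the 17 transcription factor genes below, is therefore near what genes in general gave. None of 6 tested lipoxygenase relatives passed in any comparison, nor did any of 7 Cyp4 relatives or 10 relatives of Abca12 in the ABC subfamily A. Those of smallest p were Alox8 (0.519-fold with detergent A, adjusted p = 0.4437, and 0.486-fold with detergent B, adjusted p = 0.3411), Cyp4f17 (1.32-fold, adjusted p = 0.1633, and 1.24-fold, adjusted p = 0.2121) and Abca5 (0.787-fold, adjusted p = 0.4342, and 0.645-fold, adjusted p = 0.122). The median log2 fold change of the ABC relatives was -0.28 with detergent A and -0.2 with detergent B. Among 5 patatin relatives of Pnpla1, Pnpla8, a mitochondrial and peroxisomal phospholipase gene, rose 1.32-fold with detergent B (adjusted p = 0.04089, edgeR). Slc27a6, a relative of Slc27a4, averaged 10.9 ± 4.53 CPM with detergent A, 9.64 ± 4.7 with detergent B and 17.8 ± 4.16 with PBS, and fell with both together (0.576-fold, adjusted p = 0.04822). Rdh9, a retinol dehydrogenase relative of Sdr9c7, rose 1.54-fold with both together (adjusted p = 0.04613). None of 17 transcription factor genes linked to epidermal lipid synthesis passed in any comparison. The 2 closest with detergent B were Prdm1 (1.39-fold, adjusted p = 0.07759) and Pparg (1.17-fold, adjusted p = 0.1378), and with detergent A Zfp750 (1.26-fold, adjusted p = 0.1521) and Prdm1 (1.31-fold, adjusted p = 0.181).

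The genes whose levels followed the 10 most closely across libraries were found from log2 CPM less group means, over 18 libraries and 13826 genes with a symbol and a mean of at least 1 CPM. Ly6g6c, a gene of the Ly6 family, had the highest Pearson r with the mean of the 10, at 0.967. Map2k4, a kinase of stress signalling, followed at 0.956, and Gpt2, an alanine aminotransferase, and Pld2, a phospholipase D, at 0.953. Ttpal was at 0.951, and Dedd2 and Ceacam19 at 0.95. In all, 89 genes (0.644%) had an r of 0.9 or more, against a median of 0.01. Krt5 (0.93), the sebocyte marker Far2 (0.93) and the suprabasal marker Dsc1 (0.906) were among them. Other epidermal keratins followed less closely: Krt1 at 0.767, Krt14 at 0.75, Krt10 at 0.69, Krt15 at 0.3 and Krt2 at 0.294. Hair shaft genes had r between -0.902 (Krt32) and -0.748 (Krt35). Fads2, which desaturates linoleate and stands in the elongation list, had an r of -0.874.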

How the data were processed

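The 18 libraries were made from skin stored in RNAlater and lysed in Qiazol, per the labels' protocols. Each deposited file lists a whole-number count per gene, not normalised by the authors, as the differing totals show. The submitters' processing notes name STAR, featureCounts and GRCm38.p5. Which versions, which annotation, whether strand was used and how reads with several matches were treated is not given in the sources used here. Of 41605 gene IDs, 41519 were matched to GENCODE M21 and 86 were not.

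Tests used edgeR 4.0.16 (R 4.3.3) with its default low-count filter and TMM scaling (factors 0.909 to 1.091). A robust quasi-likelihood fit by group used all 18 libraries, with 15 residual degrees of freedom. Adjusted p-values are Benjamini-Hochberg values over 16836 genes, with a threshold of 0.05, and an SE is the log2 fold change over the square root of F. CPM values are TMM-scaled, and scores are mean log2 CPM with a prior count of 2. The lowest chi-square per gene between any pair of libraries was 8.892, so none agreed within sampling noise.

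The members and all gene lists were chosen with earlier results of these data known. The text names the 10 members, and of each partner, family and regulator list up to 3 genes past the threshold by smallest p, or else the 2 of smallest p, together with the 8 genes most like the members. Not every gene that this rule takes is reported here. Sptssb, Fads2, the marker genes that passed or are given with an r, and list genes given without values were named after their values were seen. The fit for detergent B against PBS was tried on simulated counts, drawn independently for each gene. These held no tissue makeup shared across the genes of a library, so they cannot show how such makeup affects the calls. Alternatives were DESeq2 1.42.0, limma 3.58.1 (voomWithQualityWeights), other scalings and filters, fits on fewer groups, a block for replicate number, a non-robust fit, tissue scores as covariates, a GC correction in 20 bins and each library left out. The fit with both tissue scores, and the partner counts under each setting, were chosen after seeing the data.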

Additional observations from a re-analysis of the deposited data

Results flagged for a closer look

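The 30 groups (10 genes in 3 groups of 6 libraries) were checked on log2 CPM for a library far from the others. In 3 of them, a library's gap to its nearest neighbour took up more of the group's range than Dixon's 95% limit of 0.625. Chance flags about 1 in 20. Each ratio of gap to range below is of log2 CPM, while the levels beside it are in CPM. Ratios taken on CPM itself would differ, and flags near the limit depend on the scale. Elovl1 in detergent B replicate 3 was low, at 371.4 CPM against 526.3 to 555.8 CPM in the other 5 libraries (gap over range 0.865). Slc27a4 was low in the same library, at 312.7 CPM against 499.2 to 632.0 CPM (0.665). Aloxe3 in PBS replicate 6 was high, at 231.0 CPM against 130.8 to 158.5 CPM (0.662). Detergent B replicate 3 also had the most hair shaft keratin of its group (193.1 CPM summed) and PBS replicate 6 the least of its group (20.4 CPM); their part in these values was not tested.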

How the results depend on the processing

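With detergent A, the main count of 0 members past the threshold was 7 by DESeq2 (which called 5.13% of all genes), 10 by limma voomWithQualityWeights (23.3%) and 1 with total counts in place of TMM (1.31%), and 0 to 10 when one library was left out: 10 without PBS replicate 6, 9 without detergent A replicate 2, 4 without detergent A replicate 6, 1 without detergent B replicate 4, and 0 in the other 14 fits. With detergent B, the count of 4 was 8 by DESeq2 (8.1% of all genes), 10 by voomWithQualityWeights (30.1%), 7 with only the libraries compared (4.48%), 1 with no filter (0.895%), 2 with the GC correction (1.67%), and 0 with the hair shaft score (0.0%), the epidermal keratin score (0.0%) or both (0.00594%) as covariates. It was 0 to 9 with one library left out. For both detergents together, the count of 8 was 0 with the hair shaft score (0.0%), the epidermal keratin score (0.0%) or both (0.00594%), and 0 to 10 with one library left out. No member passed for detergent B against detergent A in any setting. The cause of these shifts was not tested. All 10 genes kept their direction over PBS except with tissue scores. With the hair shaft score, Aloxe3 was at -0.007 (log2) for detergent B. With the epidermal keratin score, Elovl1 was at -0.12, Elovl4 at -0.023, Slc27a4 at -0.133, Cyp4f39 at -0.017 and Aloxe3 at -0.069 for detergent B, and Elovl1 at -0.028 and Slc27a4 at -0.036 for both together. With both scores, Elovl1 was at -0.104, Elovl4 at -0.01, Slc27a4 at -0.13, Cyp4f39 at -0.014 and Aloxe3 at -0.034 for detergent B, and Elovl1 at -0.036 and Slc27a4 at -0.038 for both together. Total counts in place of TMM moved the median log2 fold change of all genes to -0.11 for detergent A, -0.138 for detergent B and -0.123 for both together.

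The labels do not say whether libraries of the same replicate number are paired, and the main fit used no block. Of 18 same-numbered pairs, 8 had a correlation of deviations over 0.1, with a range from -0.348 to 0.546. The other pairs had a wider range, from -0.654 to 0.671, and a median of -0.0555. Such correlations cannot decide whether the samples were paired. With the replicate block, 0 members passed for detergent A (0.0% of all genes), 1 for detergent B (Abhd5, adjusted p = 0.0481; 2.24% of all genes) and 5 for both together (5.27%), and 0 for detergent B against detergent A. Each of these genes had at least 1289 counts in every library.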
